A study of Mus musculus with 6 samples.

Results

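The smooth muscle contractile and actin apparatus was followed as 40 genes of the 31055 features in a single-cell RNA matrix of the mouse aorta. The genes were taken by symbol, and each of the 40 symbols named exactly 1 row of the matrix. For description they were divided by textbook use into 18 smooth-muscle-restricted genes, such as Acta2 and Myh11, and 22 cytoskeletal genes shared with other cells, such as Myh9 and Rhoa. This division was made with earlier results of these data known, so it describes the 40 genes and does not test them. A further 72 contractile and actin genes of the same pathway were read beside them.

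The aortic root and ascending aorta of 6 mice at 16 weeks of age were dissociated, sorted for live nucleated cells and profiled with a 3′ single-cell chemistry in which each captured transcript is counted once as a unique molecular identifier (UMI). By the labels, 4 mice were controls with a normal Tgfbr1 (Tgfbr1+/+) and 2 carried the Loeys-Dietz syndrome (LDS) allele in 1 copy (Tgfbr1M318R/+). Of the controls, 2 also carried Wnt2CRE and EGFP-L10a and were described as traced for the cardiac neural crest. In such animals, a Cre transgene switches on a green fluorescent ribosomal protein in the descendants of the cells that expressed it. The 6 libraries are told apart by a number at the end of each cell barcode, and no label pairs that number with a mouse. Each comparison below was therefore made between cells of the same library, no comparison of LDS with control was made, and the libraries are given as values with their median and range, with no p-value. UMIs of the added GFP sequence numbered 157 to 263 in libraries 1 to 4 and 6 to 8 in libraries 5 and 6, so 4 libraries held them in number where the labels name 2 traced mice.

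After the study's limits on genes, UMIs and mitochondrial reads per cell, 24972 of 30716 barcodes remained, with 18218282 to 38105145 UMIs per library and a median of 5572 to 9838 UMIs per cell. Among these cells, 152 had a barcode sequence that also occurred in another library. Libraries 2 and 6 stood apart in VSMC-like cells in transcripts of the ribosomal RNA repeat, with 1397 and 1549 CPM of Gm42418 against 260 to 363 CPM in the other 4. Cells were clustered without the 40 genes and the other contractile genes, and clusters were named from marker lists that hold none of the 40. They comprised 10391 cells like vascular smooth muscle cells (VSMC-like), 13462 fibroblast-like, 570 endothelial-like and 549 leukocyte-like cells. The smooth muscle label was read from 14 measured markers that were not members (among them Npnt, Itga8, Casq2 and Carmn). Since this list named the clusters, its levels describe the class and do not test it. Of the 14, 12 were highest in VSMC-like cells, at a summed 3727 CPM (UMIs of a gene scaled to a common total per library) against 187 to 408 CPM in the other classes. Of the other 2, Fhl5 was at or near 0 in every class and Pcp4l1 was somewhat higher in endothelial-like cells.

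Smooth muscle contracts when calcium activates myosin light chain kinase, which phosphorylates the regulatory light chain so that smooth muscle myosin can pull on actin filaments. Myosin phosphatase reverses this step, and RhoA with its kinases restrains the phosphatase. Tropomyosins, calponins, caldesmon and transgelin coat or bind the actin filament, and filamins, alpha-actinins, vinculin and talin tie the filaments to one another and to the adhesions that connect the cell with elastic lamellae. Many of these genes are driven by serum response factor with its partner myocardin, and they mark the contractile state of the cell.

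The sequences before the transcription start are shown for the members that carry a binding sequence of serum response factor there, the CArG box, and for Acta2, which is the most abundant member. In the RefSeq promoters of GRCm38.p6 (250 bases before to 50 after each start, 32851 promoters of 27025 genes), 35 of the 40 genes had an entry, all but Actg2, Myh11, Tagln, Rock1 and Svil. A strict CArG box on either strand was present in 1 of 15 restricted genes (6.67%) and 3 of 20 shared genes (15%), against 1.62% of all genes. The letters GGAATG, the core of the element bound by TEAD factors, were present on either strand in 8 of 15 restricted genes (53.3%) and 7 of 20 shared genes (35%), against 14.4% of all genes. Capitals mark a strict CArG box or GGAATG in the lines that follow, and a missing match says only that these letters are not in this window. The Acta2 line holds ccctatatgg and ccttgtttgg, which each differ from the strict form by 1 base and are not marked.
Acta2 (chr19:34255374-34255623, minus strand), 250 bases up to the start: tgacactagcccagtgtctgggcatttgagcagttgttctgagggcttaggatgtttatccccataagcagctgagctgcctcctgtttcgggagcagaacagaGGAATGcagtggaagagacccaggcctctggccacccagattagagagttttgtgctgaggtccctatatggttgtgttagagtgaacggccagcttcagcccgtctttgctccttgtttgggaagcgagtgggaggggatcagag
Myl9 (chr2:156775214-156775463, plus strand), 250 bases up to the start: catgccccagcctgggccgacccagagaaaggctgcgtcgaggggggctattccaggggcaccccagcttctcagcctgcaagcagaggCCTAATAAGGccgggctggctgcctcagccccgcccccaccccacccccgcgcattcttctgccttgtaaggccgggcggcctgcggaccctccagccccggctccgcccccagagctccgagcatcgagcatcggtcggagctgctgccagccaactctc
Vcl (chr14:20929148-20929397, plus strand), 250 bases up to the start: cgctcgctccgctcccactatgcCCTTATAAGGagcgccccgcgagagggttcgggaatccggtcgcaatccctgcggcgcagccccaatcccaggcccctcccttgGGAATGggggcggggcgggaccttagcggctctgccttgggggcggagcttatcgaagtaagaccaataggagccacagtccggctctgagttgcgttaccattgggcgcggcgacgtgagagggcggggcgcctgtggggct
Cnn2 (chr10:79988534-79988563, plus strand), 30 bases around the box: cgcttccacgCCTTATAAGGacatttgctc
Myl6 (chr10:128493040-128493069, minus strand), 30 bases around the box: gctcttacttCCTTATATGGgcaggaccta
The box lay 161 to 152 bases before the start in Myl9, 227 to 218 in Vcl, 56 to 47 in Cnn2 and 50 to 41 in Myl6. These positions count from the RefSeq starts, and in the annotation of the matrix 217 of the bases printed for Acta2, 44 for Myl9 and all 30 for Myl6 lie inside the longer gene model. Acta2 held GGAATG 146 to 141 bases before its start and Vcl 143 to 138 bases before. The box and GGAATG did not overlap in Vcl, the gene that held both.

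The 40 genes made up 10.3% of all UMIs of VSMC-like cells, with libraries between 9.93% and 10.7%. The 18 restricted genes alone took 7.56% (7.11% to 7.69%) and the 22 shared genes 2.87% (2.71% to 3.03%). In fibroblast-like cells the 40 genes took 1.04% (0.812% to 1.53%), in endothelial-like cells 1.44% (0.874% to 1.66%) and in leukocyte-like cells 1.29% (0.757% to 1.43%). The VSMC-like range therefore lay above every library of the other classes, and in the other classes most of the share came from the shared genes.

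Levels differed widely among the members in VSMC-like cells. A UMI stands for the 3′ end of 1 captured transcript and is not scaled by length, so these values rank transcripts and not proteins. Acta2 (smooth muscle alpha-actin, ENSMUSG00000035783, mm10 chromosome 19 from 34241090 to 34255590, minus strand) led with 26594, 28900, 28752, 25805, 27982 and 28053 CPM in libraries 1 to 6. Tagln (transgelin, ENSMUSG00000032085, chromosome 9 from 45929619 to 45936058, minus strand) followed with 19827, 19245, 21878, 21017, 24169 and 19690 CPM. These ranges did not overlap. Myl6 (the essential light chain, median 9191 CPM), Myl9 (the regulatory light chain, 8136 CPM) and Dstn (destrin, 8070 CPM) came next, and their libraries overlapped. Myh11 (smooth muscle myosin heavy chain, ENSMUSG00000018830, chromosome 16 from 14194535 to 14291372, minus strand) stood at 2687, 2263, 2290, 2293, 2404 and 2721 CPM. Cnn1 (calponin 1, ENSMUSG00000001349, chromosome 9 from 22099216 to 22109630, plus strand) stood at 2046, 1811, 2025, 1616, 1953 and 1699 CPM, below Myh11 in every library. The lowest members were Myh9 with a median of 77.0 CPM, Tpm3 with 64.7 CPM and Flnc with 45.4 CPM.

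**Figure D1:**
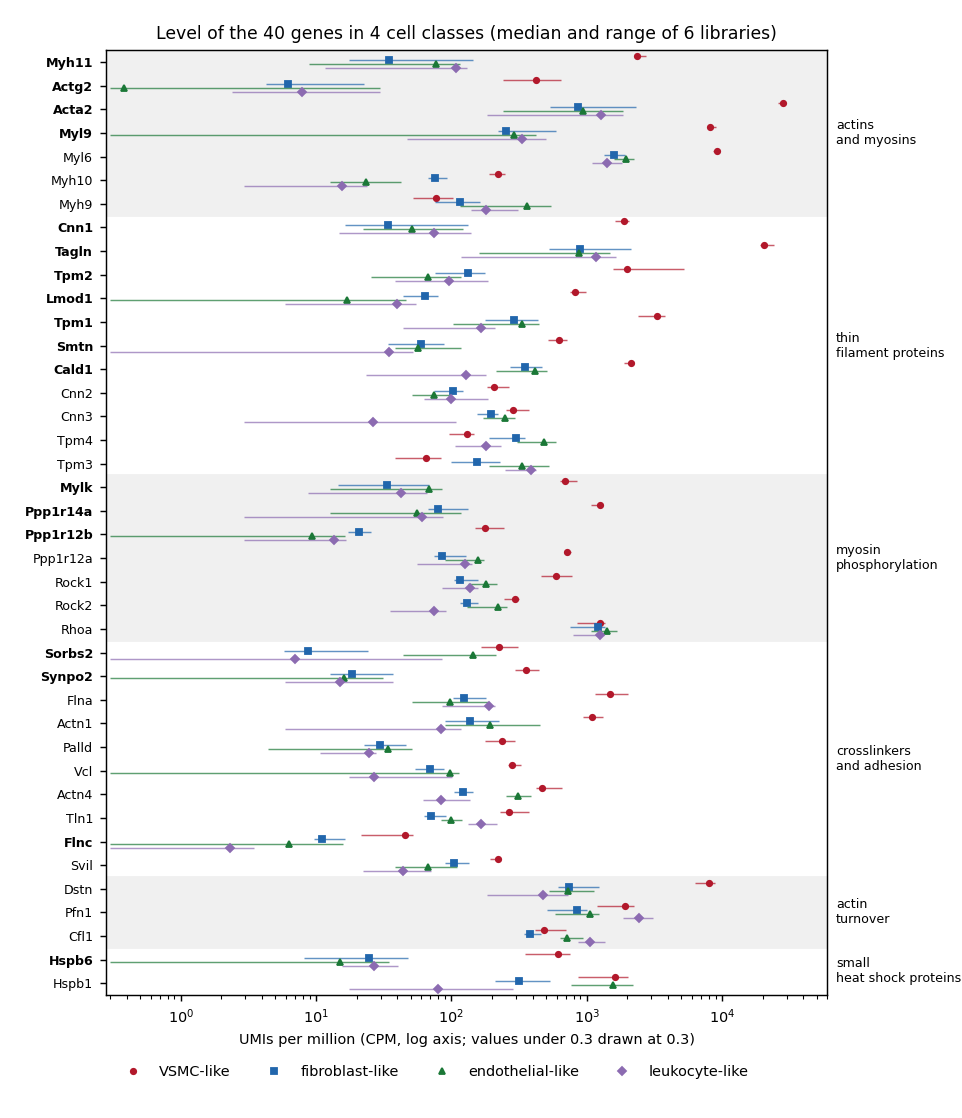
Level of each of the 40 genes (rows, grouped by role, restricted genes in bold) in 4 cell classes on a log axis of CPM, with symbols at the median and lines over the range of 6 libraries and values under 0.3 CPM drawn at 0.3. Restricted genes such as Acta2 and Myh11 lie far to the right in VSMC-like cells, while Rhoa, Tpm3, Tpm4, Myh9 and Cfl1 do not.

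Compared with fibroblast-like cells of the same library, VSMC-like cells were higher in all 18 restricted genes and in 16 of the 22 shared genes, and lower in Tpm3 and Tpm4. A gene was called when its median log2 ratio over the 6 libraries was at least 1 in size and the sign was the same in all 6. Among all 8162 genes with a mean of at least 10 CPM, 8.78% were called higher and 11.9% lower by this rule, and all 40 genes passed the filter. The restricted genes had a median log2 ratio of 4.38 (3.37 to 5.02 by library) and the shared genes 1.69 (1.55 to 1.78), against -0.01 over all genes tested. By role, 6 of 7 actins and myosins, 8 of 11 thin filament proteins, 6 of 7 regulators of myosin phosphorylation, 10 of 10 crosslinkers and adhesion proteins, 2 of 3 turnover factors and 2 of 2 small heat shock proteins were called higher.

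Among actins and myosins, Myh11 had the largest ratio, with 101, 17.5, 37.3, 32.4, 144 and 29.3 CPM in the fibroblast-like cells of libraries 1 to 6 and a log2 ratio of 6.04 (4.06 to 7.01). Actg2, the gamma-actin of enteric smooth muscle, was close behind at 5.91 (3.51 to 7.03), although its level in VSMC-like cells was only 425 CPM. Acta2 had 1477, 540, 984, 737, 2298 and 613 CPM in fibroblast-like cells and a log2 ratio of 5.00 (3.61 to 5.74). The restricted light chain Myl9 rose by 4.99 (3.76 to 5.35) and the widely used light chain Myl6 by 2.46 (2.33 to 2.74). The nonmuscle heavy chains divided. Myh10 (nonmuscle myosin IIB) was higher in VSMC-like cells, with library ratios between 1.42 and 1.66 on the log2 scale, at 248, 190, 213, 227, 192 and 235 CPM against 92.3, 71.1, 67.5, 79.2, 68.8 and 81.4 CPM. Myh9 (nonmuscle myosin IIA) was the smallest of this role, with 103, 52.3, 75.6, 78.3, 64.6 and 92.0 CPM against 162, 75.7, 134, 101, 97.3 and 131 CPM. It was below fibroblast-like cells in every library, and its log2 ratio of -0.56 (-0.83 to -0.37) did not reach the call.

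Among thin filament proteins, Cnn1 had the largest ratio, with 93.0, 16.4, 36.5, 31.5, 134 and 22.2 CPM in fibroblast-like cells and a log2 ratio of 5.74 (3.87 to 6.78). Tagln had 1233, 648, 1031, 747, 2135 and 528 CPM there and a log2 ratio of 4.61 (3.50 to 5.22). Tpm2 (beta-tropomyosin) was higher by 4.25 (3.48 to 5.32), Lmod1 (leiomodin 1, a filament nucleator) by 3.69 (3.31 to 4.49) and Tpm1 (alpha-tropomyosin) by 3.60 (3.11 to 3.74). Smtn (smoothelin) followed with 3.32 (2.86 to 3.94), Cald1 (caldesmon) with 2.61 (2.24 to 2.85) and Cnn2 (calponin 2) with 1.12 (0.79 to 1.51). Cnn3, the acidic calponin of many nonmuscle cells, was higher in every library by 0.61 (0.32 to 0.99) without reaching the call. The tropomyosin genes used by nonmuscle cells went the other way. Tpm3 had 61.5, 38.3, 75.2, 84.0, 68.0 and 46.4 CPM in VSMC-like cells against 153, 100.2, 197, 228, 158 and 105 CPM in fibroblast-like cells, a log2 ratio of -1.35 (-1.44 to -1.18). Tpm4 had 142, 95.4, 146, 146, 122 and 101 CPM against 329, 222, 351, 305, 299 and 190 CPM, a log2 ratio of -1.22 (-1.30 to -0.91). In both, the highest VSMC-like library lay below the lowest fibroblast-like library. The matrix also lists 2 copies of Tpm3, Tpm3-rs2 and Tpm3-rs7, so reads of this gene could have been divided or discarded.

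Among regulators of myosin phosphorylation, Mylk (myosin light chain kinase) had the largest ratio, with 849, 632, 634, 642, 730 and 804 CPM against 53.3, 14.5, 23.0, 23.7, 68.4 and 42.7 CPM, a log2 ratio of 4.49 (3.42 to 5.44). Ppp1r14a, the phosphatase inhibitor CPI-17, followed with 3.96 (3.01 to 4.28). The targeting subunits of myosin phosphatase were close to each other, Ppp1r12b at 3.07 (2.79 to 3.43) and Ppp1r12a at 3.01 (2.52 to 3.20). The kinase Rock1 was higher by 2.13 (1.98 to 2.73). Rock2 was barely past the call at 1.04 (0.99 to 1.24). Rhoa, the small GTPase that activates these kinases, had 1199, 868, 1309, 1334, 1358 and 846 CPM against 1184, 928, 1351, 1260, 1361 and 748 CPM. Its log2 ratio was 0.01 (-0.10 to 0.18), it was higher in 3 of 6 libraries, and no other gene of the 40 lacked a common sign here.

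All 10 crosslinkers and adhesion proteins were higher in VSMC-like cells. Sorbs2, an adaptor of actin-anchored adhesions, had the largest ratio, with 188, 222, 165, 229, 245 and 313 CPM against 11.9, 6.25, 5.79, 7.83, 24.2 and 9.49 CPM, a log2 ratio of 4.84 (3.34 to 5.14). Synpo2 was higher by 4.27 (3.21 to 4.77), Flna (filamin A) by 3.46 (2.83 to 4.06), Actn1 (alpha-actinin 1) by 2.99 (2.57 to 3.39) and Palld (palladin) by 2.79 (2.16 to 3.64). Vcl (vinculin) had 2.06 (1.82 to 2.34), Actn4 1.96 (1.85 to 2.36), Tln1 (talin 1) 1.87 (1.85 to 2.03) and Flnc (filamin C) 1.86 (0.92 to 2.26). Svil (supervillin) had the smallest ratio, with 221, 203, 220, 229, 219 and 194 CPM against 105, 106, 89.7, 106, 99.1 and 135 CPM, a log2 ratio of 1.09 (0.53 to 1.30). Of the turnover factors, Dstn, which severs actin filaments, had 8840, 7513, 7969, 8170, 8811 and 6291 CPM against 1114, 690, 748, 745, 1241 and 611 CPM, a log2 ratio of 3.39 (2.83 to 3.45). Its relative Cfl1 (cofilin 1) had 519, 619, 448, 426, 418 and 709 CPM against 345, 464, 399, 367, 362 and 413 CPM and a log2 ratio of 0.32 (0.17 to 0.78), under the call. Pfn1 (profilin 1), which delivers actin monomers to growing filaments, lay between them at 1.20 (1.08 to 1.34). The small heat shock proteins were both higher. Hspb6, a target of cyclic nucleotide-dependent kinases in relaxing smooth muscle, rose by 4.85 (3.40 to 5.40), with 637, 587, 753, 662, 500.2 and 349 CPM against 33.5, 14.4, 27.7, 21.6, 47.5 and 8.19 CPM. Hspb1 rose by 2.16 (1.59 to 3.26), with 1583, 1675, 1290, 860, 1665 and 2020 CPM against 327, 316, 313, 285, 535 and 210 CPM.

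**Figure D2:**
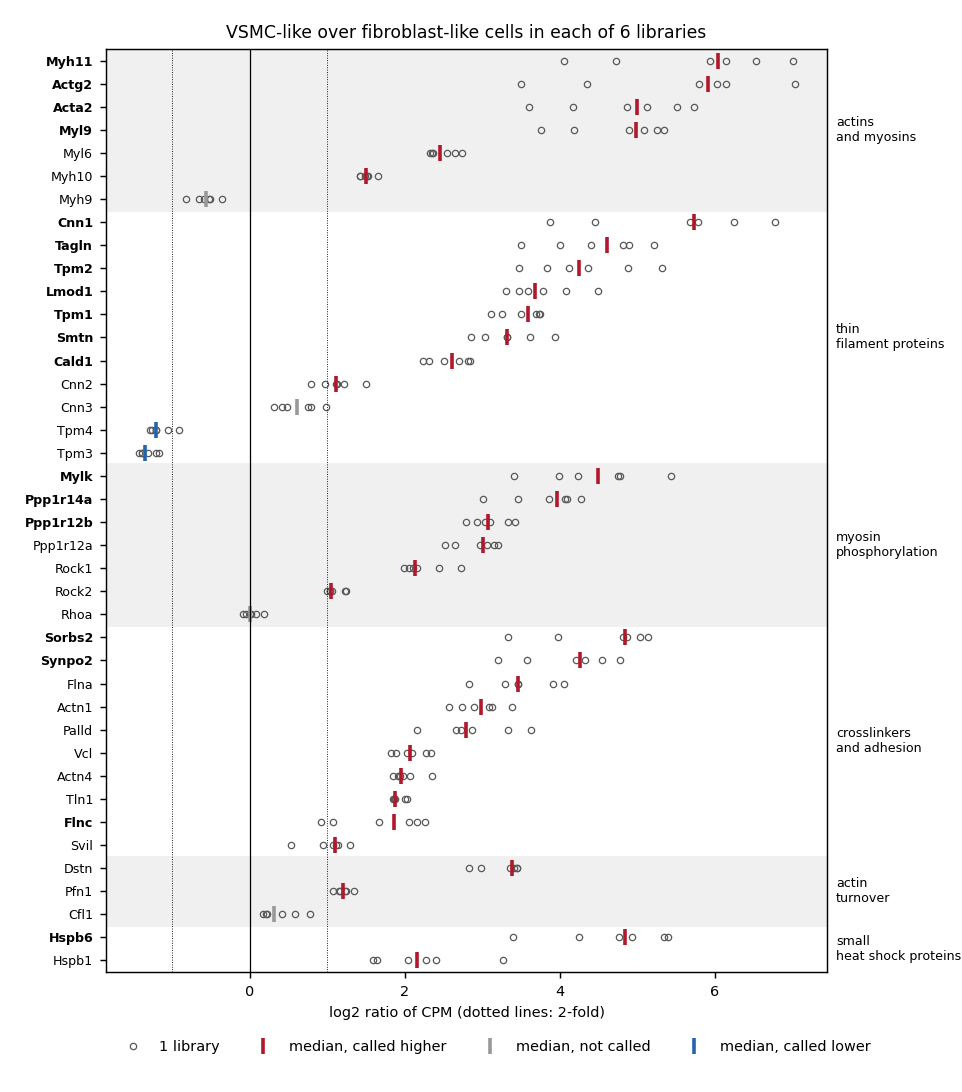
Log2 ratio of CPM in VSMC-like over fibroblast-like cells for each of the 40 genes (rows, restricted genes in bold), with 1 open circle per library and a bar at the median. The 18 restricted genes are all right of the 2-fold line, Tpm3 and Tpm4 are left of the opposite line, and Rhoa sits at 0.

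The low levels of restricted genes outside smooth muscle need a background, because RNA set free by damaged cells enters every droplet. Leukocytes should lack these transcripts, yet in leukocyte-like cells the restricted genes stood at a median of 4.67% of their VSMC-like level (2.48% to 7.78% by gene), beside 4.85% in fibroblast-like cells (1.52% for Myh11 to 27.7% for Flnc). The fibroblast-like level of Acta2 was above the leukocyte-like level in 3 of 6 libraries (log2 ratio -0.20) and that of Myh11 in 3 of 6 (-0.64), so neither stood above that level throughout. Of leukocyte-like cells, 9.11% were marked as doublets, and without doublets in either class Acta2 was above in 3 of 6 libraries (0.17) and Myh11 in 1 of 6 (-0.80). With all cells, it was above in all 6 libraries for 5 restricted genes, namely Flnc (2.14), Cald1 (1.46), Smtn (1.06), Tpm1 (0.95) and Ppp1r12b (0.63), as it was for 32.2% of all 8559 genes tested between these classes. With every cell thinned to 3000 UMIs, Acta2 was found in 99.8% of VSMC-like, 58.1% of fibroblast-like and 51.2% of leukocyte-like cells (unthinned 99.9%, 77.0% and 71.4%). Myh11 was found in 97.2%, 5.31% and 8.24% (unthinned 98.1%, 7.99% and 10.9%), and 570, 1213 and 100 cells were too shallow to be thinned. The median depth before thinning was 7183, 6133 and 5168 UMIs. The VSMC-like over fibroblast-like ratios of Acta2, Myh11, Tagln and Cnn1 were smallest in library 5 and next smallest in library 1, where their fibroblast-like levels were highest. In leukocyte-like cells, Tagln had this order as well, at 1431, 117, 1166, 1166, 1650 and 628 CPM in libraries 1 to 6. Acta2 did not, at 1233, 182, 1841, 1782, 1321 and 964 CPM, and neither did Myh11 and Cnn1. The part of free RNA in this order was not tested. Without doublets, the VSMC-like over fibroblast-like log2 ratio was 7.66 for Myh11 and 6.91 for Cnn1, against 6.04 and 5.74 with them, 5.69 for Acta2 and 5.11 for Tagln.

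Of the 72 other contractile and actin genes, 57 passed the filter. Of these, 29 were higher and 5 lower in VSMC-like cells, against 8.78% higher and 11.9% lower of all genes. The largest were Mylk4, a relative of the light chain kinase (5.63), Des, the muscle intermediate filament desmin (5.45), Pgm5, an adherens junction protein (4.93), Myocd, the coactivator myocardin (4.16), and Nexn, an actin-binding protein (3.46). Des and Myocd also stood in the marker list that named the class. The 5 lower genes were Tmod2 (-3.30) and Tmod3 (-1.21), which cap actin filaments, Myl12b, a nonmuscle regulatory light chain (-1.66), Ssh2, a cofilin phosphatase (-1.35), and Tln2 (-1.29).

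Of 11 families or pairs among the members, 6 had a different leading gene in at least 1 class and 5 had the same one in all 4 classes. Myh11 supplied 89.0% of myosin heavy chain UMIs (Myh9, Myh10 and Myh11 together) in VSMC-like cells against 15.4% in fibroblast-like and 15.2% in endothelial-like cells, where Myh9 led with 46.8% and 79.7%. In leukocyte-like cells, which should lack it, Myh11 still had 35.2% (7.55% to 39.0%). The part of free RNA in family shares outside VSMC-like cells was not tested. Tpm1 and Tpm2 supplied 60.5% and 35.7% of tropomyosin UMIs in VSMC-like cells, whereas Tpm4 had the highest median, with 34.2% in fibroblast-like and 39.0% in endothelial-like cells, the former overlapping with Tpm1. Cnn1 supplied 78.2% of calponin UMIs in VSMC-like cells and Cnn3 led with 53.7% and 63.5% in the other 2 classes. Dstn supplied 94.6% of the UMIs of the pair Dstn and Cfl1 in VSMC-like cells, 66.1% in fibroblast-like, 48.5% in endothelial-like and 30.8% in leukocyte-like cells. The 5 with a constant leader were Acta2 over Actg2, Flna over Flnc, Myl6 over Myl9, Hspb1 over Hspb6 and Ppp1r12a over Ppp1r12b. Ppp1r12a supplied 80.4% of their UMIs in VSMC-like and 81.9% in fibroblast-like cells, with overlapping libraries.

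**Figure D3:**
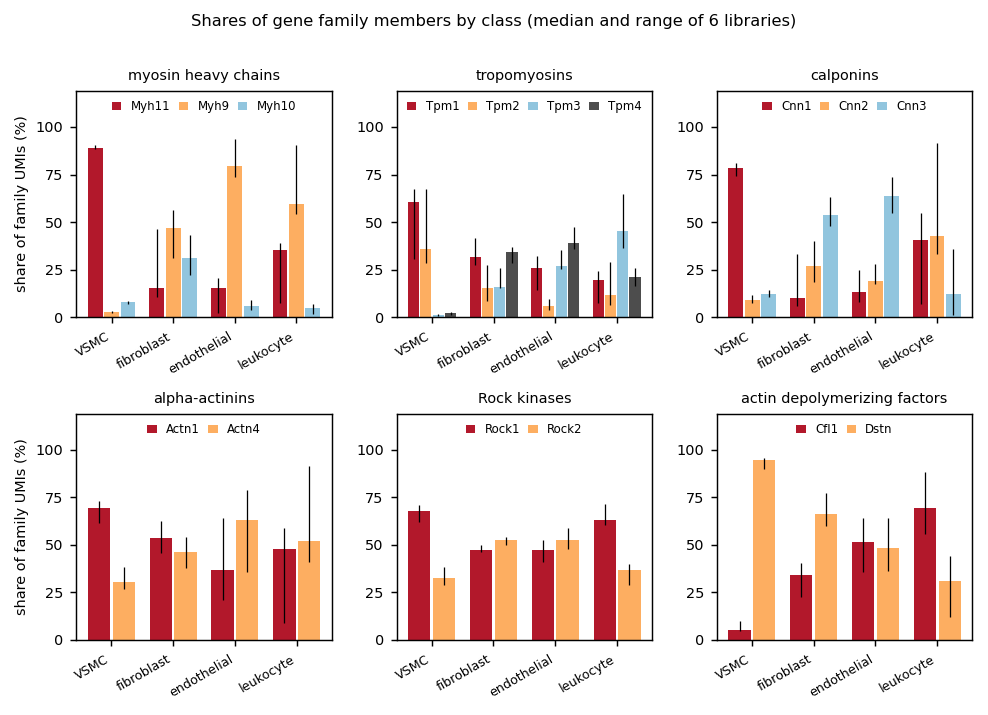
Share of a family's UMIs taken by each gene (bars at the median, lines over the range of 6 libraries) in VSMC-like, fibroblast-like, endothelial-like and leukocyte-like cells for 6 families. Myh11, Cnn1 and Dstn take the tallest bars in VSMC-like cells, and Myh9, Cnn3 and Cfl1 take larger shares in fibroblast-like and endothelial-like cells.

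Compared with endothelial-like cells, 17 of 18 restricted genes and 12 of 22 shared genes were called higher in VSMC-like cells, and Tpm3, Myh9 and Tpm4 were lower, against 10.4% higher and 14.9% lower of 8513 genes. These cells were few, 10 in library 6 and 35 to 255 in the others, and 11.1% of them were marked as possible doublets. Actg2, Ppp1r12b and Flnc averaged under 10 CPM in endothelial-like cells and passed the filter only through VSMC-like cells. For 7 restricted genes at least 1 library held no UMI there, so ratios are given with a floor of 3 UMIs per library in such a case. On that scale Actg2, at 0 in 3 libraries, was at least 4.87 higher on the log2 scale, and the restricted and shared medians were 4.49 and 1.49. Without doublets the restricted median at this floor was 5.60. Tpm3 and Myh9 were both lower by a log2 ratio of -2.39 and Tpm4 by -1.84. All 3 were higher in endothelial-like cells in every library. The uncalled restricted gene was Sorbs2, with medians of 226 CPM in VSMC-like and 144 CPM in endothelial-like cells and a log2 ratio of 0.94 (-0.19 to 2.33). Its endothelial-like level was 3.99 above the leukocyte-like level on the log2 scale and higher in 6 of 6 libraries, and it was found in 24.3% of thinned endothelial-like cells against 0.668% of leukocyte-like cells. Acta2 and Myh11 were above the leukocyte-like level in endothelial-like cells in 2 and 1 of 6 libraries. With library 1 left out, Sorbs2 was called higher.

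Of the 58 other contractile genes that passed the filter, 24 were called higher and 9 lower than in endothelial-like cells. Over all genes tested, 10.4% were called higher and 14.9% lower. Against leukocyte-like cells, the 18 restricted genes were all called higher, as were 15 shared genes, and 3 shared genes (Tpm3, Myh9 and Cfl1) were lower, against 21.1% higher and 18.2% lower of 8413 genes. Flnc passed the filter there only through VSMC-like cells. The leukocyte-like level is the one set beside the fibroblast-like level above.

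The study divides the smooth muscle cells of these libraries into the subclusters VSMC1 and VSMC2. Reclustering of VSMC-like cells without the 40 genes gave 8440 VSMC1-like cells with higher Tes and Ptprz1 and 1683 VSMC2-like cells with higher Enpep and Notch3, the latter 10.8% to 20.8% of VSMC-like cells by library. The share of UMIs taken by the 40 genes overlapped between them, 10.4% (10.1% to 10.8%) in VSMC1-like and 10.7% (9.35% to 10.9%) in VSMC2-like cells. By gene, Palld and Sorbs2 were called higher and Flnc and Myh10 lower in VSMC2-like cells, and the other 36 genes were not called. Over all 7722 genes, 3.1% were called higher and 2.29% lower. The median log2 ratio was -0.03 over the restricted and -0.06 over the shared genes, against -0.05 over all genes. The restricted median was not stable in sign, at 0.15 without the finer subcluster described below.

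Palld, which crosslinks actin and gathers around dense bodies and adhesions, had 824, 800, 518, 606, 1070 and 987 CPM in VSMC2-like cells of libraries 1 to 6 against 135, 137, 118, 93.8, 157 and 124 CPM in VSMC1-like cells. Its lowest VSMC2-like library was more than 3 times its highest VSMC1-like library, and the log2 ratio was 2.65 (2.13 to 2.99). The gene, ENSMUSG00000058056, spans mm10 chromosome 8 from 61511433 to 61902690 on the minus strand. Sorbs2, on the plus strand of the same chromosome from 45507788 to 45827906 (ENSMUSG00000031626), had 600.1, 632, 519, 654, 801 and 990.3 CPM against 142, 124, 106, 107, 146 and 162 CPM, which gives 2.40 (2.07 to 2.61) on the log2 scale. These differences were wider than the spread of libraries, and the counting interval of every library excluded 0. In cells thinned to 3000 UMIs, Palld was found in 76.4% of the VSMC2-like against 27.3% of the VSMC1-like ones (unthinned 86.9% and 48.0%), and Sorbs2 in 62.9% and 29.1% (unthinned 76.1% and 52.4%).

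Flnc, the muscle filamin (ENSMUSG00000068699, chromosome 6 from 29433256 to 29461883, plus strand), had 16.2, 22.1, 16.8, 8.41, 13.5 and 19.6 CPM in VSMC2-like cells against 57.2, 54.6, 50.2, 28.4, 23.0 and 53.7 CPM, a log2 ratio of -1.51 (-1.81 to -0.76). The VSMC2-like values rest on 200 UMIs in all, but the groups did not overlap. Myh10 (ENSMUSG00000020900, chromosome 11 from 68691559 to 68816632, plus strand) had 109, 75.5, 143, 125, 82.0 and 96.4 CPM against 264, 218, 227, 258, 211 and 268 CPM, a log2 ratio of -1.32 (-1.53 to -0.67). Nonmuscle myosin IIB supplied 3.79% of heavy chain UMIs in VSMC2-like and 8.50% in VSMC1-like cells. With the next finer clustering, its log2 ratio was -0.88 and not called.

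Of the uncalled genes, Cnn3 (-0.85, with a range of -1.04 to -0.66) and Hspb6 (-0.79, with a range of -1.03 to -0.58) were lower in all 6 libraries, and Hspb1 (0.87, with a range of 0.28 to 1.16) was higher in all 6. Across the 40 genes, 9 were higher and 15 lower in every library at any size, and 16 were of mixed sign, while 13.6% of all genes were higher and 20.9% lower in every library. Among actins and myosins, Actg2 had the largest ratio, with 422, 712, 383, 329.8, 398 and 697 CPM in VSMC2-like cells against 458, 623, 413, 216, 221 and 384 CPM in VSMC1-like cells (0.40, higher in 4 of 6). Among thin filament proteins, Tpm3 was the highest at 0.41 and Cnn3 the lowest, the latter with 216, 153, 169, 168, 172 and 172 CPM against 379.6, 294, 310.3, 272, 270.5 and 353 CPM. For myosin phosphorylation, Mylk was highest at 0.07 and Rock2 lowest at -0.43, and for turnover, Cfl1 was highest at 0.28 and Dstn lowest at -0.26. Acta2 had 26053, 28814, 23721, 24662, 26257 and 28095 CPM in VSMC2-like cells against 27152, 29119, 29988, 26410.1, 28356 and 28539 CPM, a log2 ratio of -0.08 with a range that reached -0.34. Cnn1 was lower in all 6 libraries, with log2 ratios from -0.57 to -0.23. Myh11 ranged from -0.35 to 0.08 and was above 0 only in library 6. Tagln ranged from -0.03 to 0.33 and was below 0 only in library 3.

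VSMC2-like cells also held more fibroblast marker RNA, at a median of 1756 CPM (668 to 4005) against 880 CPM (371 to 1286) over 8 markers, and more dissociation stress RNA, at 23367 against 14487 CPM. Of VSMC2-like cells 9.03% were marked as doublets, against 1.82% of VSMC1-like cells. Without the finer subcluster of VSMC2-like cells that is rich in doublets (led by Cygb, Apoe and Dpt), an alternative chosen after the data were seen, the 4 calls above held, Cnn3 (-1.02) was also called lower and Hspb1 (1.21) also higher. Acta2 and Myh11 then had log2 ratios of 0.08 and 0.04, and 10 uncalled members in all turned sign (also Smtn, Myl9, Ppp1r12b, Synpo2, Tpm4, Myl6, Myh9 and Rock1). Cnn1 and Tagln kept their signs. VSMC1-like cells were also weighted to match VSMC2-like cells in 5 bins of the share of stress RNA, and no call of a member changed. How much of each ratio goes with stress RNA was not tested.

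**Figure D4:**
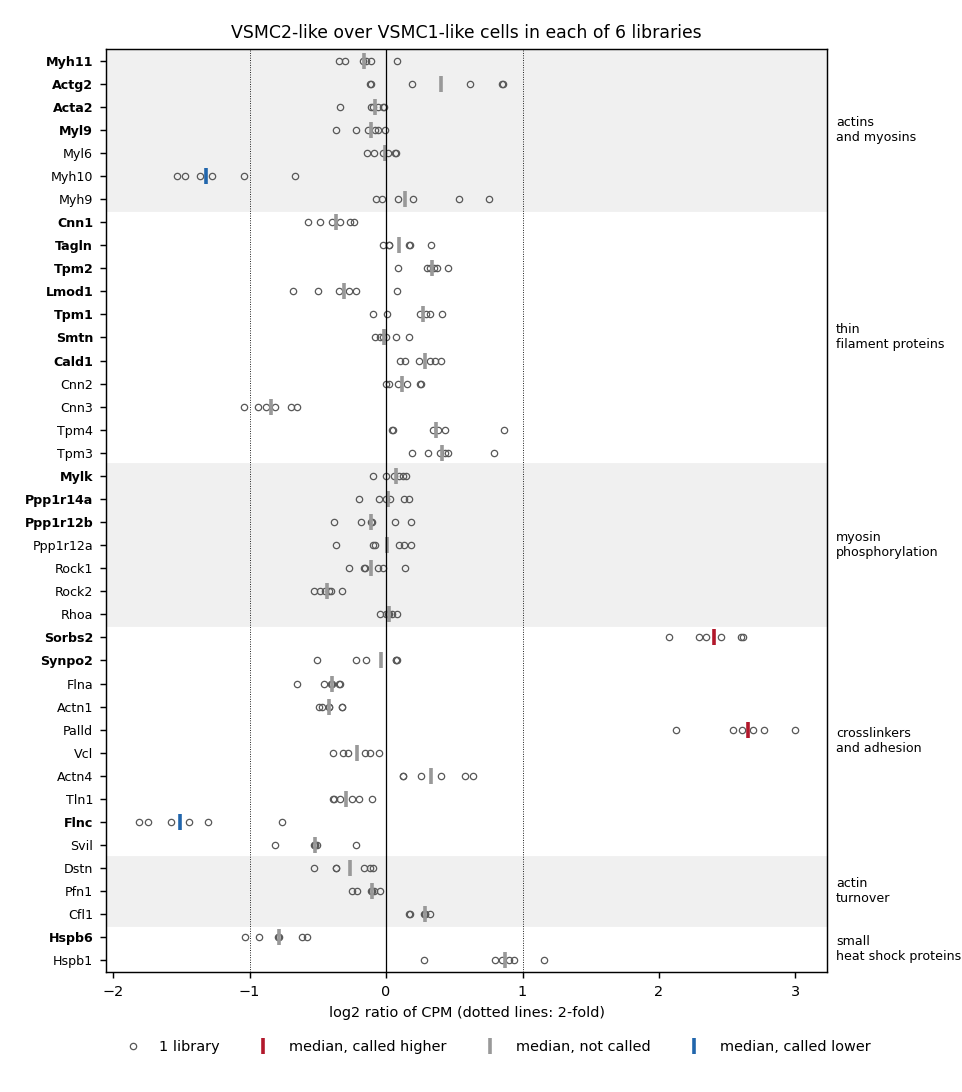
Log2 ratio of CPM in VSMC2-like over VSMC1-like cells for each of the 40 genes (rows, restricted genes in bold), with 1 open circle per library and a bar at the median. Most genes lie near 0, Palld and Sorbs2 stand to the right at 2.65 and 2.40, and Flnc and Myh10 to the left at -1.51 and -1.32.

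Of the 56 other contractile and actin genes that passed the filter, VSMC2-like cells had 3 called higher and 3 called lower. Over all genes, 3.1% were called higher and 2.29% lower. Acta1, the skeletal muscle actin, had 17.2 to 44.0 CPM in VSMC2-like cells against 0.115 to 1.58 CPM, on 35 UMIs in all 6 libraries of VSMC1-like cells. It passed the filter only through VSMC2-like cells, and its log2 ratio ranged from 3.68 to 7.67. Synm, an intermediate filament protein, was higher by 1.06 and Rnd3 by 1.02. Mylk4 had 23.8 against 168 CPM (-2.85), Des 158 against 366 CPM (-1.13) and Pgm5 28.4 against 57.6 CPM (-1.05).

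VSMC2-like cells were not uniform in the members that marked them. They consisted mainly of 3 finer subclusters, namely 799 cells led by Ankrd1, Col8a1, Gja4 and Enpep, 550 cells led by Olfr558, Pgam2 and Pln, and 329 cells led by Cygb, Apoe and Dpt. Both of the larger subclusters had high Palld, at 2.78 (2.65 to 3.14) and 3.15 (2.60 to 3.34) over VSMC1-like cells on the log2 scale. Sorbs2 differed between them, at 1.83 in the Ankrd1 subcluster and 3.37 in the Olfr558 subcluster, a log2 ratio of 1.45 (1.03 to 1.80) that was called, as was a lower Cnn3 in the latter (-1.38, with a range of -1.93 to -0.74). Between these subclusters 2.46% of 7508 genes were called higher and 1.81% lower. The ratio of Palld was 0.22 (-0.04 to 0.50), with no common sign.

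At a resolution of 0.5, VSMC-like cells formed 13 subclusters of at least 50 cells, and each was compared with the other VSMC-like cells of its library. Those others include the VSMC2-like cells, so Palld had a median of 236 CPM over all VSMC-like cells against 129 CPM in VSMC1-like cells. For Sorbs2 these medians were 226 and 133 CPM. An average subcluster of VSMC1-like cells therefore has ratios below 0 for both genes. Palld and Sorbs2 reached their highest ratios in the subclusters led by Ankrd1 and Col8a1 (813 cells; Palld 2.28, Sorbs2 1.26) and by Olfr558 and Pgam2 (551 cells; Sorbs2 3.20, Palld 2.49). The lowest ratios of the former were Myh10 (-1.17) and Flnc (-1.01), and those of the latter Flnc (-2.44, on 40 UMIs) and Cnn3 (-1.79). The largest subcluster, led by Casq1 and Tes with 3107 cells, had low Palld (-1.36) and Sorbs2 (-1.07) and slightly raised Cnn3 (0.39) and Ppp1r14a (0.34). Its restricted median was 0.12 and the 40 genes took 11.1% of its UMIs.

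Restricted genes were lowest in 3 subclusters. In the 334 cells led by Cygb, Apoe and Dpt all 18 were lower in all 6 libraries with a median of -1.18, led by Cnn1 (-1.52) and Myh11 (-1.47), while Tpm4 (1.37) and Myh9 (1.03) were the highest. Over all 7996 genes tested in this subcluster, 12.8% were lower in every library. The 40 genes took 5.12% of UMIs there. Of these cells 41.3% were marked as doublets and the summed fibroblast markers stood at 6873 CPM. That list holds Dpt, a leading gene of the subcluster, and all 8 markers were detected here as in every other subcluster. Without doublets 196 cells were left, the restricted median was -1.51 and 17 of 18 remained lower in every library. In the 418 cells led by Cd74 and H2-Aa, genes of antigen presentation, all 18 restricted genes were again lower in every library with a median of -0.59, against 8.81% of all genes, and the 40 genes took 7.89% of UMIs. The largest falls were Palld (-1.72) and Sorbs2 (-1.07), and Myh9 (0.57) and Tpm4 (0.44) were the highest. Leukocyte markers stood at 2029 CPM and fibroblast markers at 2242 CPM in this subcluster. These lists hold Cd74 and Lum, which are among its leading genes, so the sums describe the subcluster and do not test for other cells. Of these cells 4.31% were marked as doublets, and the median without them was -0.58. In the 280 cells led by Prrx2, Rgs5 and Sfrp2, 11 of 18 restricted genes were lower in every library, against 5.81% of all genes, with a median of -0.41 and 7.83% of UMIs. Cnn3 (0.72) and Myh9 (0.39) were its highest members and Palld (-1.01) and Hspb1 (-0.84) its lowest. Pericyte markers, a list that holds its leading gene Rgs5, summed to 4959 CPM. The part of these other cell types' markers in the lower ratios was not tested.

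In the remaining subclusters neither list was lower or higher throughout, and single genes are given. Flnc and Actg2 were the highest members of the 322 cells led by Igfbp2 and Akap5 (1.08 and 0.70), where Palld (-0.93) and Hspb1 (-0.42) were lowest. In the 1453 cells led by Gm26870 and Tnxb, which had the lowest depth with a median of 4263 UMIs, Flnc (0.99) and Flna (0.80) were highest and Palld (-0.97) and Pfn1 (-0.85) lowest. Hspb6 (0.61) and Svil (0.49) led among members in the 546 cells with high Tnnt2 and Psd, with Sorbs2 (-0.89) and Cnn3 (-0.51) at the other end. The 747 cells led by Fst and Klf2 had the highest ratios in Tpm4 (0.39) and Rhoa (0.35), and the 820 cells led by Gm17056 and Gdf15 in Hspb1 (0.50) and Flnc (0.15). In the 832 cells led by Mt1 and Cebpd, the highest were Hspb6 (0.16) and Myl6 (0.09), and in the 150 cells led by 2210407C18Rik they were Hspb6 (0.45) and Myh10 (0.29). In these last 4 subclusters Palld (-1.76 to -0.63) and Sorbs2 (-1.18 to -0.95) were the 2 lowest members. Both ratios are lowered by the VSMC2-like cells among the other cells, as said above.

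**Figure D5:**
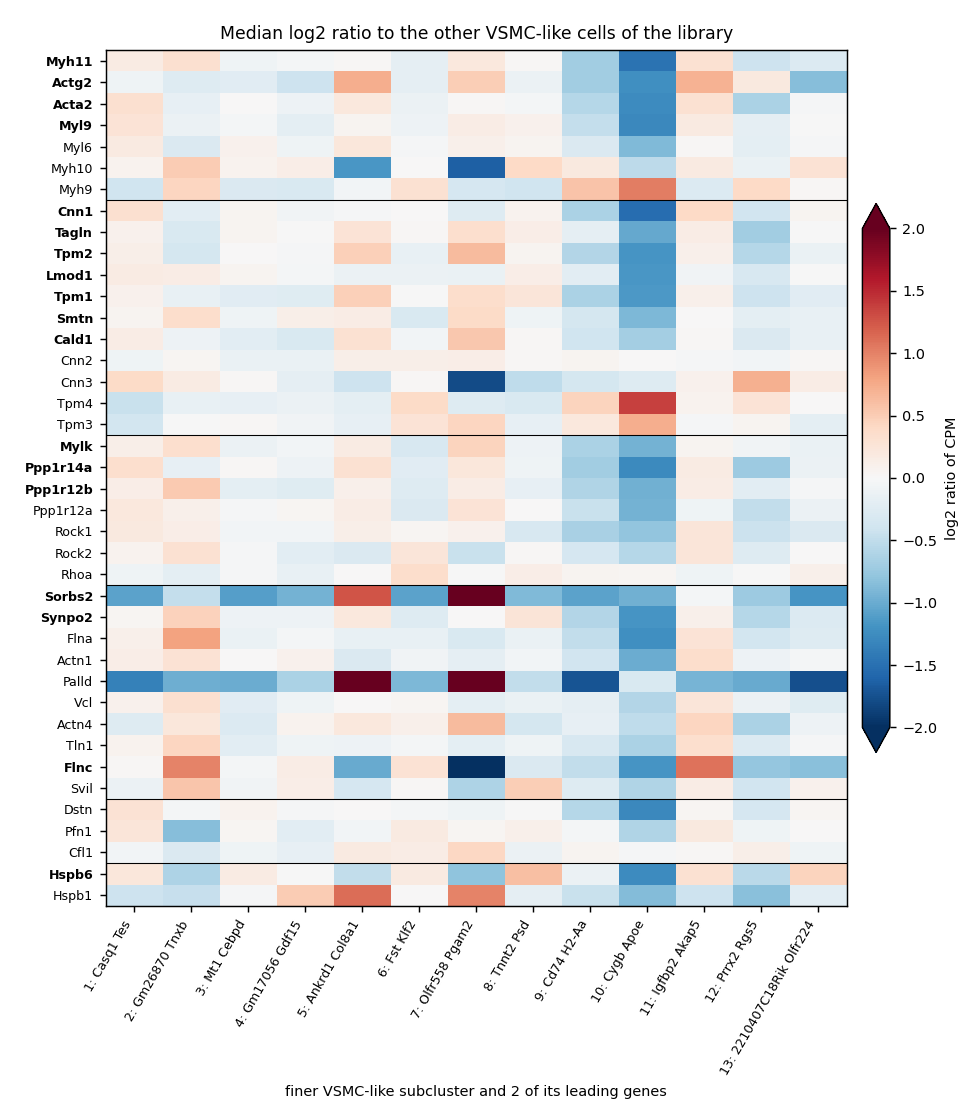
Median log2 ratio of each of the 40 genes (rows, restricted genes in bold) in 13 finer subclusters (columns) over the other VSMC-like cells of the library, with red for higher and blue for lower and colours saturating at a log2 ratio of 2 in size. Columns 9 and 10 are blue across the restricted genes, and the reddest cells are Palld in columns 5 and 7 and Sorbs2 in column 7.

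The spread across the 6 libraries in VSMC-like cells differed among the members. The highest library exceeded the lowest by a factor of 1.12 for Acta2 and Ppp1r12a and 1.13 for Myl9, the smallest of the 40 genes. Among other abundant members the factor was 1.14 for Myl6, 1.26 for Tagln, 1.41 for Dstn, 1.58 for Tpm1 and 1.88 for Pfn1. The median factor was 1.36 over restricted genes, with 4 of 18 at 2 or more (22.2%), and 1.54 over shared genes, with 2 of 22 (9.09%), beside 1.43 over all 7693 genes, of which 9.54% reached 2. Tpm2 (ENSMUSG00000028464, chromosome 4 from 43514711 to 43523765, minus strand) differed most, by a factor of 3.36. It stood at 2286, 4488, 1635, 1561, 1707 and 5248 CPM in libraries 1 to 6, so libraries 2 and 6 were apart from the other 4. Its partner Tpm1 had its lowest values in the same libraries, at 3149, 2512, 3459, 3713, 3766 and 2377 CPM, and Tpm2 made up 28.4% to 67.5% of tropomyosin UMIs by library. Tpm3 was also lowest in libraries 2 and 6 and differed by a factor of 2.20.

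Actg2 had 464, 647, 412, 241, 248 and 438 CPM, a factor of 2.69, with libraries 4 and 5 lowest. Flnc had 52.4, 47.9, 44.6, 23.9, 21.4 and 46.3 CPM, a factor of 2.45, with the same 2 libraries lowest. Hspb1 had the values given above, a factor of 2.35, with library 4 lowest. The values were alike in VSMC1-like cells alone, where the factors were 3.37 for Tpm2, 2.89 for Actg2, 2.69 for Hspb1, 2.49 for Flnc and 2.23 for Tpm3. The exact Poisson intervals of the highest and lowest library did not overlap for any of the 40 genes, and they cover counting error only. These 2 libraries were picked by the same values, and the overlap was not counted over all genes. It therefore cannot set the 40 genes apart from others. Median depth of VSMC-like cells was greatest in libraries 2 and 6, at 12213 and 10746.5 UMIs against 6165 to 9103.5 in the others, and stress RNA was highest in library 5. Libraries 2 and 6 were the 2 lowest in 9 of the 40 genes (Tagln, Smtn, Tpm1, Tpm3, Tpm4, Svil, Dstn, Pfn1 and Rhoa) and the 2 highest in 7 (Tpm2, Myl9, Lmod1, Ppp1r12b, Cnn2, Cfl1 and Hspb1). The same counts were not made over all genes, so they cannot show a trait of the 40 genes. These 2 libraries were also the 2 with high Gm42418 and with 100.1 and 140.2 CPM of AY036118, another transcript of the ribosomal RNA repeat, against 5.09 to 10.9 CPM. Mitochondrial UMIs were 4.35% and 4.95% there against 3.73% to 5.04% in the others. The part of depth, stress and ribosomal RNA in these differences was not tested, and no library has a genotype.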

How the data were processed

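Single-cell libraries of the aortic root and ascending aorta of 6 mice were deposited by the authors as 1 pooled matrix of raw UMI counts per gene and cell barcode (10x Genomics 3′ chemistry, mm10). The submitters' processing notes name Cell Ranger 6 and the matrix header names version 4.0.0. Barcode suffixes separate 6 libraries, and no column or label pairs a suffix with a mouse, so groups were not compared. There were 0 unused sample columns.

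Cells with 1000 to 5000 genes, 1500 to 25000 UMIs and under 20% mitochondrial UMIs were kept, after the study's methods. They were normalized with SCTransform (sctransform 0.4.2), integrated over libraries by reciprocal PCA with 30 components and clustered at a resolution of 0.25 in Seurat 5.3.0 (R 4.3.3). The 40 genes and the other contractile genes were left out of the variable genes (2919 used), and clusters were named by at least 3 listed markers. VSMC-like cells were normalized and clustered again (2876 variable genes) at a resolution of 0.05, and at 0.5 for finer subclusters. Possible doublets were marked per library in scanpy 1.11.5 (the highest-scoring 0.8% per 1000 cells) and were kept, except in a stated alternative.

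UMIs were summed per class and library, expressed as CPM of the sum, and divided within a library with a prior of 0.5 UMI. Genes with a mean of at least 10 CPM over both classes were tested, and a gene was called at a median log2 ratio of 1 or more in size with the same sign in all 6 libraries. The functions were tested on simulated data. Cells are not replicates and libraries carry no genotype, so no p-value, SD or interval over animals was formed. Poisson and binomial intervals (95%, exact) cover counting error only. Depth limits the endothelial-like and leukocyte-like sums, which hold 3293838 and 3415867 UMIs against 81896471 in VSMC-like cells.

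The genes were named by rule. Acta2, Myh11, Tagln, Cnn1, the largest and smallest member of each role over fibroblast-like cells, the members called in VSMC2-like over VSMC1-like cells and the 5 members that differed most across libraries were given for each library. Although the rule asked for library values, other members called over fibroblast-like cells were given by range. In VSMC2-like over VSMC1-like cells, Myh11, Tagln, Cnn1 and most extremes of a role were given by median or range. The rule also took up to 5 other contractile genes in each direction and up to 2 members at each end of a finer subcluster. The members, lists and tests were chosen with earlier results of these data known. Alternatives were TMM factors (edgeR 4.0.16), totals without the 40 genes, other filters, doublets removed, other clusterings, a sum over libraries, weighting by stress RNA and leaving out each library. A further 4 alternatives were chosen after seeing the data, 3 that leave out a subcluster rich in doublets and 1 that compares fibroblast-like with leukocyte-like cells without doublets. Promoters came from RefSeq (GRCm38.p6) and were searched on both strands, a CArG box as CC, 6 bases that are A or T, and GG.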

Additional observations from a re-analysis of the deposited data

Results flagged for a closer look

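UMIs of the added GFP sequence, which no comparison above used, reached at least 100 in 4 libraries (263, 201, 157 and 258 UMIs in libraries 1 to 4), against 8 and 6 UMIs in libraries 5 and 6. The labels name 2 traced mice. The signal was looked at because it lies outside the main measurement and above the libraries without it. In VSMC1-like cells of libraries 1 to 4 with at least 1 GFP UMI (386 cells), the members had a median log2 ratio to the other VSMC1-like cells of 0.02 over the restricted and -0.04 over the shared genes, against -0.02 over all genes. The ends among the 40 genes were Flnc at 0.19 (-0.05 to 0.46 by library) and Tpm3 at -0.18 (-0.58 to 0.11). Both were of mixed sign. In all 4 libraries, 2 restricted genes were higher and 1 lower, and 0 shared genes were higher and 3 lower.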

How the results depend on the processing

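Medians and shares were judged by their spread over libraries, and counts of genes by a fixed factor to the main count. Of 920 values recomputed under an alternative, 366 of the summary values and 478 of the values of named genes stayed within these limits. A further 35 and 41 moved, and none of the called values changed direction. For VSMC-like over fibroblast-like cells, the median of the shared genes was 1.81 with TMM factors and 1.83 with totals without the 40 genes, beside medians over all genes of 0.11 and 0.13. Without a filter the median over all genes was -0.11 with 1401 genes called higher and 3199 lower, and with a filter of 50 CPM it was 0.053 with 318 and 381, against 717 and 971. The calls of members stayed as they were in all of these, except that Flnc fell under the filter of 50 CPM, and Rhoa changed sign when library 1, 4 or 6 was left out. For VSMC-like over endothelial-like cells, the restricted median without doublets was 5.97, or 5.60 with the floor of 3 UMIs. For VSMC2-like over VSMC1-like cells, 657 genes were called higher and 469 lower without a filter and 88 and 59 with a filter of 50 CPM, against 239 and 177, and 0 restricted genes were then called lower because Flnc was left out. Shared genes called higher numbered 2 with doublets removed, with log-normalized counts, without the Cygb, Apoe and Dpt subcluster, and without it and doublets, Hspb1 being added each time. Those called lower numbered 2 under the last 3 of these, Cnn3 being added, and 0 at the next finer resolution, where Myh10 was not called and the shared median was -0.15. With log-normalized counts no resolution gave exactly 2 subclusters of at least 5% of cells, and the coarsest was used, so these values rest on another division. The restricted median was 0.14 with log-normalized counts, 0.15 without the subcluster and 0.14 without doublets as well. The median over all genes was -0.069 with TMM factors, -0.073 with log-normalized counts, -0.071 in both alternatives without the subcluster, -0.029 without a filter and -0.026 with stress weighting. The share of UMIs in leukocyte-like cells was 1.00% without doublets. Leaving out each library kept every summary value within its limit and changed 1 call, Sorbs2 over endothelial-like cells without library 1. Where a cause is not given, the cause was not tested. No paired analysis was possible because no groups of mice were compared, and the ratios between cell classes were already formed within each library.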

Other observations

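The 40 genes also varied among fibroblast-like cells, which formed 6 clusters, each compared with the other fibroblast-like cells of its library. The 40 genes took 0.987% to 1.09% of UMIs in each. Lmod1 was lowest in the 5059 cells led by Has1 and Ly6c1 (-1.27, lower in 6 of 6 libraries, 27.7 CPM). Flnc had its highest ratio in the former (1.01, higher in 6 of 6) and its lowest in the 772 cells led by Cd74 and Coch (-1.96, lower in 6 of 6, 3.17 CPM), which also had the highest Palld (1.19) and Hspb6 (1.04), each higher in 6 of 6. Sorbs2 was highest in the 1745 cells led by Spp1, Cytl1 and Chad (1.43, higher in 6 of 6), at 16.4 CPM. These levels are low and were not compared with the free RNA of each library.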
